A study of Phalaenopsis aphrodite with 54 samples.

Results

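*PaAGL6-1* is a *Phalaenopsis* orchid gene of the AGAMOUS-LIKE6 (AGL6) branch of the MADS box family. On the array it was represented by contig PATC154379, 1 of 43662 transcript contigs, and by 2 of 67038 contig probes, each printed as 2 spots. The gene was taken by its contig number, which the study pairs with the name *PaAGL6-1*. No filter on the values was used to choose it, but the study's earlier results from these data were known. It is known for its level in the lip, so its levels in the floral organs are described here without a test.

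MADS box proteins are transcription factors that bind DNA in pairs and larger complexes and set the identity of floral organs. In the ABCDE scheme of flower development, combinations of the classes act in successive whorls, and the study placed *AGL6* genes with class A. The orchid flower has sepals, a pair of lateral petals, a modified petal called the lip, or labellum, and a column in which stamens and pistil are fused. The pollinia are its pollen masses, and the pedicel is the flower stalk, which in orchids runs into the ovary below the flower.

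Each of 54 one-colour arrays carried RNA of 1 tissue. Of these, 41 arrays in 20 conditions carried RNA amplified from 1 µg of total RNA, and 13 arrays in 6 conditions carried unamplified RNA labelled from 20 µg. The lip, petal, sepal, column, pedicel and pollinia, the small buds (under 1 cm), the large buds (over 1 cm), the open flowers and the flowers at 1, 3, 8 and 15 days after pollination came from *Phalaenopsis* Sogo Yukidian 'V3', a tetraploid commercial hybrid called V3 here. The young inflorescence, inflorescence, bud, open flower, stalk, leaf and root came from the diploid species *P. aphrodite*, for which the bud size was not given. The unamplified arrays carried flowers, leaves and roots of both plants. No treatment other than pollination distinguished the groups, and every condition had 2 arrays except the *P. aphrodite* leaf, which had 3 for each labelling.

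Levels are given as normalized intensity on the log2 scale, so that a difference of 1 is a 2-fold change. Processed signals under 20 were raised to 20, which is a level of 4.32, and arrays were quantile normalized within each labelling, so amplified and unamplified levels are on different scales. A probe is called well above background where the scanner software marked at least 1 of its 2 spots so. Probe 1 of the contig was the brighter over the amplified arrays and gave the values below unless probe 2 is named. Between 71.2 and 80.7% of spots were well above background on the amplified arrays, and between 73.7 and 82.7% on the unamplified arrays. No spot was saturated. In 14 of the 20 amplified conditions and 5 of the 6 unamplified ones the arrays differed from each other by no more than the 2 spots of a probe within an array, so they were averaged and counted as 1 replicate. The spread in the amplified fit thus comes from the other 6 conditions. These are the lip, petal and sepal and the *P. aphrodite* inflorescence, young inflorescence and bud. No V3 bud, open flower or pollinated flower is among them. Each of those V3 stages counts as 1 replicate, and the fit holds no spread of its own for it. In 1 of the 6, the petal, *PaAGL6-1* was at the floor on both arrays. The labels do not say whether the remaining pairs came from separate plants, so p-values measure only the spread between these arrays. With so few arrays, each difference has a wide margin.

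*PaAGL6-1* was well above background on both arrays of 17 of the 20 amplified conditions, by either probe. The exceptions were the petal, the *P. aphrodite* leaf and the *P. aphrodite* root. On the 34 arrays with signal, the processed intensity of the spots of probe 1 lay between 501 and 75603. On the other 7 arrays it lay between 3.42 and 24.0, and all but 1 array had the floor level of 4.32. The single value over the floor was 5.18 on 1 leaf array.

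The lip had the highest level of the 20 amplified conditions. Its arrays read 16.14 and 16.10 by probe 1, and 16.12 and 16.18 by probe 2. The pedicel read 12.27 on both arrays, and the sepal 12.23 and 12.19. The column read 11.22 and 11.27, and the pollinia 10.73 and 10.85. Both petal arrays were at 4.32, not well above background by either probe, which puts the petal at no more than 0.0281% of the lip intensity. The pedicel stood at 6.94% of the lip intensity, the sepal at 6.65%, the column at 3.42% and the pollinia at 2.49%. No array of the lip overlapped any array of another condition, while the petal, the organ that shares its whorl, was one of the conditions without detected signal. Both arrays of each floral organ came from separate collections of flowers, according to the study's methods, although those of the column, pedicel and pollinia differed by no more than the spots within an array. The organ labels were set against markers taken from the study's text: all 6 pollinia, 2 column and 2 pedicel markers were brightest in the labelled organ, as were 2 of 3 petal markers and 3 of 6 lip markers.

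**Figure D1:**
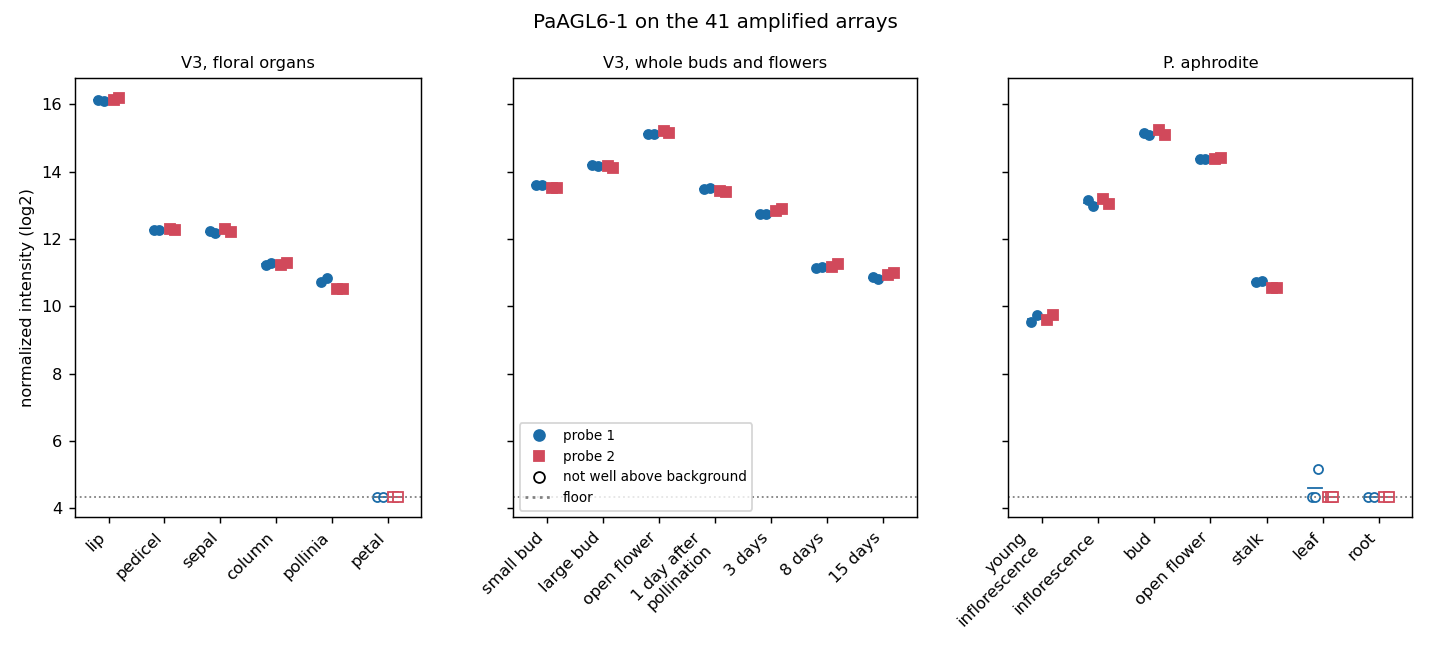
Level of *PaAGL6-1* (vertical axis, normalized intensity, log2) on each of the 41 amplified arrays, by probe, in V3 floral organs, in whole V3 buds and flowers and in *P. aphrodite*. Points are arrays, short lines are condition means, open symbols are not well above background and the dotted line is the floor of 4.32. The lip lies above 16, the petal, leaf and root lie at or near the floor, and the V3 series peaks in the open flower.

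In the order of the 20 conditions, the lip (mean 16.12) was followed by the open V3 flower (15.13) and the *P. aphrodite* bud (15.12), and these last 2 did not differ beyond their spread (difference 0.01, 95% confidence interval -0.21 to 0.23). Next came the open *P. aphrodite* flower (14.37) and the large V3 bud (14.19), whose interval also included 0. The small V3 bud (13.59) and the flower at 1 day after pollination (13.49) were likewise not separated. The *P. aphrodite* inflorescence (13.06), the flower at 3 days (12.74) and the pedicel (12.27) followed, each below its predecessor by more than the interval. The pedicel and the sepal (12.21) did not differ beyond their spread, nor did the column (11.25) and the flower at 8 days (11.15). The flower at 15 days (10.85), the pollinia (10.79) and the *P. aphrodite* stalk (10.73) formed a run of 3 in which no neighbours were separated, and the young inflorescence (9.63) was the lowest condition with signal. The petal, leaf and root have no order among themselves.

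Both probes gave this pattern. On the 34 amplified arrays where both were well above background, probe 1 minus probe 2 ranged from -0.16 to 0.34 with a median of -0.02 (log2). The largest gap was on a pollinia array, and in that organ probe 1 read 10.73 and 10.85 while probe 2 read 10.51 on both arrays. Over the 17 condition means with signal, Pearson's r between the probes was 0.999, given as a description, since both probes share every array. The 2 spots of probe 1 differed by a median of 0.07 (log2) on the amplified arrays.

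The first comparison asks how the level changes as the V3 flower forms and opens. *PaAGL6-1* rose at both steps. The small buds read 13.60 and 13.59, the large buds 14.20 and 14.18, and the open flowers 15.13 on both arrays. No array of one stage overlapped those of another. The large bud exceeded the small bud by 0.60 ± 0.11 (log2, SE; 1.51-fold; adjusted p = 0.00514, limma), and 13.4% of the 31962 contigs tested were higher by the same test. All 4 bud arrays were on 1 slide. The open flower exceeded the large bud by 0.94 ± 0.11 (1.92-fold, adjusted p = 1.77e-04), where 31.7% of 31861 contigs were higher. By probe 2 the small buds read 13.52 on both arrays, the large buds 14.16 and 14.12, and the open flowers 15.20 and 15.16. The steps stayed under 4-fold, the fold threshold of the study. Relative to the open flower, the small bud had 34.5% of the intensity and the large bud 52.1%.

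The second comparison asks what followed pollination. *PaAGL6-1* fell at every time measured. Its level was 15.13 on both arrays of the unpollinated open flower, 13.48 and 13.51 at 1 day, 12.75 and 12.73 at 3 days, 11.14 and 11.16 at 8 days, and 10.88 and 10.82 at 15 days after pollination. The arrays of successive times did not overlap. Probe 2 read 15.20 and 15.16, then 13.42 and 13.40, 12.84 and 12.88, 11.18 and 11.24, and 10.92 and 10.98 at the same stages. At 1 day it fell by 1.64 ± 0.11 (log2, SE; 3.11-fold; adjusted p = 1.40e-05), and 29.7% of the 31069 contigs tested were lower by this test.

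At 3 days after pollination the level was lower than in the open flower by 5.23-fold (log2 difference -2.39, adjusted p = 1.76e-06). This passed the 4-fold threshold as well, as did 5.39% of 31675 contigs in the same direction. At 8 days the difference from the open flower was -3.98 (15.8-fold lower, adjusted p = 1.50e-07), against 5.21% of 32989 contigs lower by over 4-fold. At 15 days it was -4.28 (19.4-fold lower, adjusted p = 7.91e-08), against 6.42% of 31789 contigs. A difference at least as low as that of *PaAGL6-1* was measured for 7.62% of contigs at 1 day, 3.85% at 3 days, 0.994% at 8 days and 1.04% at 15 days. The intensity left, as a share of the open flower, was 32.2, 19.1, 6.33 and 5.15% at these 4 times.

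Between successive times the step from 1 to 3 days was -0.75 ± 0.11 (adjusted p = 0.00233), with 11.4% of 31208 contigs lower. The step from 3 to 8 days was -1.59 ± 0.11 (adjusted p = 5.94e-05), with 14.2% of 32683 contigs lower. Flowers at 3 and 8 days shared 2 slides, and within them the difference was -1.61 and -1.58. The step from 8 to 15 days was -0.30 ± 0.11 and did not pass the test (95% confidence interval -0.55 to -0.05, adjusted p = 0.0751). Of 32816 contigs tested, 13.2% were lower, and on the 1 slide that held both times *PaAGL6-1* differed by -0.33. This last step passed the threshold in 3 other settings, in all of which every array also counted as a replicate. It was -0.32 with slide as a random block, -0.21 in the authors' log2 table and -0.30 with only the V3 series fitted. With every array a replicate and no other change it did not pass (adjusted p = 0.0976, limma). No slide held the open V3 flower together with a bud or a pollinated flower, or the flower at 1 day together with a later one, so that slide and stage cannot be told apart in those comparisons.

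**Figure D2:**
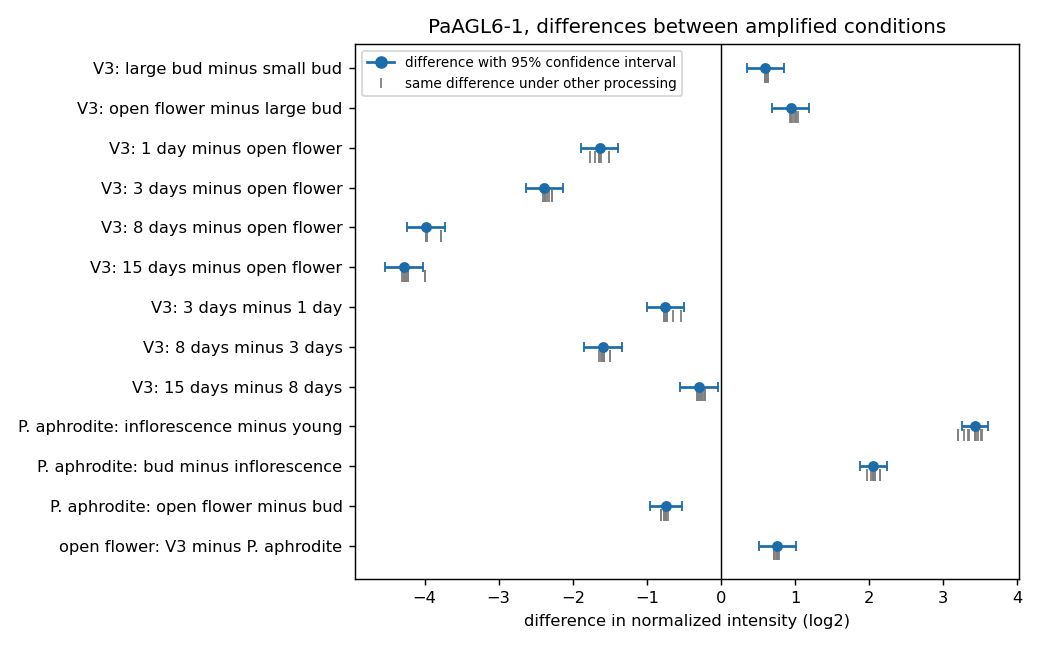
Difference in *PaAGL6-1* level (horizontal axis, log2) for 13 comparisons of amplified conditions, as named at the left. Points are limma estimates, bars are 95% confidence intervals and grey ticks are the same difference under the other processing settings. Every interval lies on one side of 0, and the step from 8 to 15 days comes nearest to it.

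Whole buds and flowers mix organs, and in such samples fewer cells of a type and less RNA per cell cannot be told apart. The level was therefore set beside contigs of each organ, taken from the 12 floral organ arrays alone as those over 4-fold brighter in 1 organ than in each of the other 5. The lip list held 81 contigs without *PaAGL6-1*, and 74 of them were well above background on both arrays of the open V3 flower. Its summed intensity, divided by 1000, lay at 1137 to 1142 in small buds, 1335 to 1338 in large buds and 4208 to 4230 in open flowers. It lay at 1097 to 1103 at 1 day after pollination, 1394 to 1397 at 3 days, 1159 to 1173 at 8 days and 746 to 751 at 15 days. Both the lip list and *PaAGL6-1* thus stood highest in the open flower, and the part of lip tissue in the changes of *PaAGL6-1* was not tested.

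The steps differed in size. Over the 80 lip contigs with signal in at least 1 of the 7 stages, the median level lay below the open flower by -2.69 (log2) in small buds and by -2.58 in large buds, while *PaAGL6-1* lay below it by -1.54 and -0.94. After pollination the list median was -1.30 at 1 day, -2.15 at 3 days, -2.13 at 8 days and -3.11 at 15 days, each nearer to 0 than the value of *PaAGL6-1* at that time. At 15 days 64 of 77 lip contigs tested fell and 10 rose, where 33.3% of all contigs tested fell and 31.9% rose. A difference at least as low as that of *PaAGL6-1* was measured for 20 of the 77. At the earlier times this held for 39 of 78 lip contigs tested at 1 day, 36 of 76 at 3 days and 18 of 78 at 8 days. Over all contigs tested the shares were 7.62% at 1 day, 3.85% at 3 days, 0.994% at 8 days and 1.04% at 15 days. A contig could be tested only if it was well above background in 1 of the 2 conditions, and these counts describe the list without a test.

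The pedicel list moved in the other direction. Its 266 contigs summed, again divided by 1000, to 3515 to 3524 in small buds, 294 to 296 in the open flower and 2891 to 2903 at 15 days after pollination. The median of its 265 contigs with signal was 3.00 (log2) above the open flower in small buds and 2.57 above it at 15 days. The study's markers of other organs were well above background in both stages. The 3 petal markers were PATC198032, PATC134853 and PATC149247. PATC147735 and PATC139333, which the study also named as higher in petal than lip, were not among them. These read 8.43 and 9.99 in the open flower and 12.42 and 12.15 at 15 days. Divided by 1000, the summed intensity at 15 days and in the open flower was 37.7 to 37.8 against 4.39 to 4.43 for 6 pollinia markers, 46.4 to 48.3 against 44.0 to 44.9 for 2 column markers, 7.04 to 7.16 against 4.05 to 4.15 for 3 petal markers and 6.92 to 7.02 against 2.33 to 2.46 for 2 pedicel markers. The 6 lip markers summed to 109.0 to 109.8 in the open flower, 15.5 at 1 day, 8.46 to 8.57 at 3 days, 20.8 to 21.2 at 8 days and 26.7 to 28.0 at 15 days, so their sum was lowest at 3 days and higher at both later times, at which *PaAGL6-1* was lower still. The brightest of them in the open flower was PATC156804, labelled phenylalanine ammonia-lyase in the study. Its level was 16.27 there, 11.90 at 3 days and 14.36 at 15 days, and in the organs 17.00 in the lip and 16.55 in the column. Only 3 of the 6 lip markers, PATC156804, *PaAP3-3* and *PaAP3-4*, were brightest in the lip. The others were PATC138942, PATC149447 and PATC196836, which read lower in the lip than in the petal. *PaZF*, which the study also named as expressed in lip and not petal, was not among the lip markers. It read 14.34 in the lip and 11.71 in the pedicel, its next brightest organ. From 11.38 in the open flower *PaZF* went to 12.81 at 1 day, 10.82 at 3 days, 12.21 at 8 days and 11.11 at 15 days. The sum of the 81 lip list contigs, divided by 1000, was lowest at 15 days (746 to 751). The study also named 7 contigs as higher in lip than petal, from a comparison that used *P. equestris*, a plant not on these arrays. Of these, PATC149447, PATC138942 and PATC196836 read lower in the V3 lip (7.22, 7.81 and 4.32) than petal (8.48, 9.02 and 6.01). The rest read higher in the lip. At 8 days 5 of the 7 were higher and 2 lower than in the open flower (median 0.83, log2). Of all contigs tested, 29% were higher and 30% lower. At 1, 3 and 15 days the list median was -0.88, -1.54 and -0.70, against 0.02, 0.02 and -0.07 for all contigs tested. The part of a larger share of pedicel and ovary tissue in the late fall of *PaAGL6-1* was not tested. The 2 genes used as internal controls in the study differed between 15 days and the open flower by 0.14 for actin (adjusted p = 0.499) and -0.76 for ubiquitin (adjusted p = 0.0296).

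The study named 21 other MADS box contigs, of which 20 had a probe on the array. At 15 days after pollination 11 of the 20 were higher than in the open flower and 6 were lower, with a median of 0.49 against -0.07 for all contigs tested, of which 31.9% were higher and 33.3% lower. *PaAGL6-2*, the other AGL6 gene, went the opposite way from *PaAGL6-1*: it read 14.32 and 14.34 in the open flower, 14.60 and 14.63 at 1 day, 15.57 and 15.60 at 3 days, 15.76 and 15.81 at 8 days, and 16.01 and 16.05 at 15 days. Its rise by 15 days was 1.70 ± 0.09 (log2, SE; adjusted p = 2.64e-06). In the organs *PaAGL6-2* was brightest in the pedicel (16.47) and lowest in the column (12.08), and it was well above background in all 6, the petal (14.28) included.

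Among class B genes, which act with others in petals and stamens, *PaAP3-4* fell by 4.42 (log2) between the open flower and 15 days (adjusted p = 2.87e-06), a size close to that of *PaAGL6-1*. *PaPI-1*, the partner class B gene, fell by 1.72 (adjusted p = 1.72e-06) and *PaAP3-3* fell by 1.07 (adjusted p = 0.00295). *PaAP3-3* was lowest at 1 day, at 10.72 and 10.73, and read 12.13 and 12.15 at 15 days, whereas *PaAGL6-1* was lowest at 15 days. *PaAP3-2* rose by 0.79 (adjusted p = 0.00610). Of the 3 class E genes, whose products join the other classes in complexes, *PaSEP-2* fell by 0.43 (adjusted p = 0.00182). *PaSEP-1* differed by 0.36 (adjusted p = 0.0695) and *PaSEP-3* by -0.01 (adjusted p = 0.956).

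The other class A genes did not follow *PaAGL6-1* in the bud. *PaAGL6-2* had a mean of 14.77 in small buds and 14.68 in large buds. *PaAP1-1*, related to the class A gene *APETALA1* of *Arabidopsis*, fell by 3.95 between small and large buds (adjusted p = 1.89e-07), and *PaAP1-2* fell by 3.26 (adjusted p = 3.44e-05). Both rose between the large bud and the open flower, by 2.41 (adjusted p = 4.70e-07) and 1.58 (adjusted p = 3.88e-04). Of the 20 MADS box contigs, 4 rose and 3 fell between small and large buds, where 13.4% of all contigs tested rose and 15.5% fell.

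**Figure D3:**
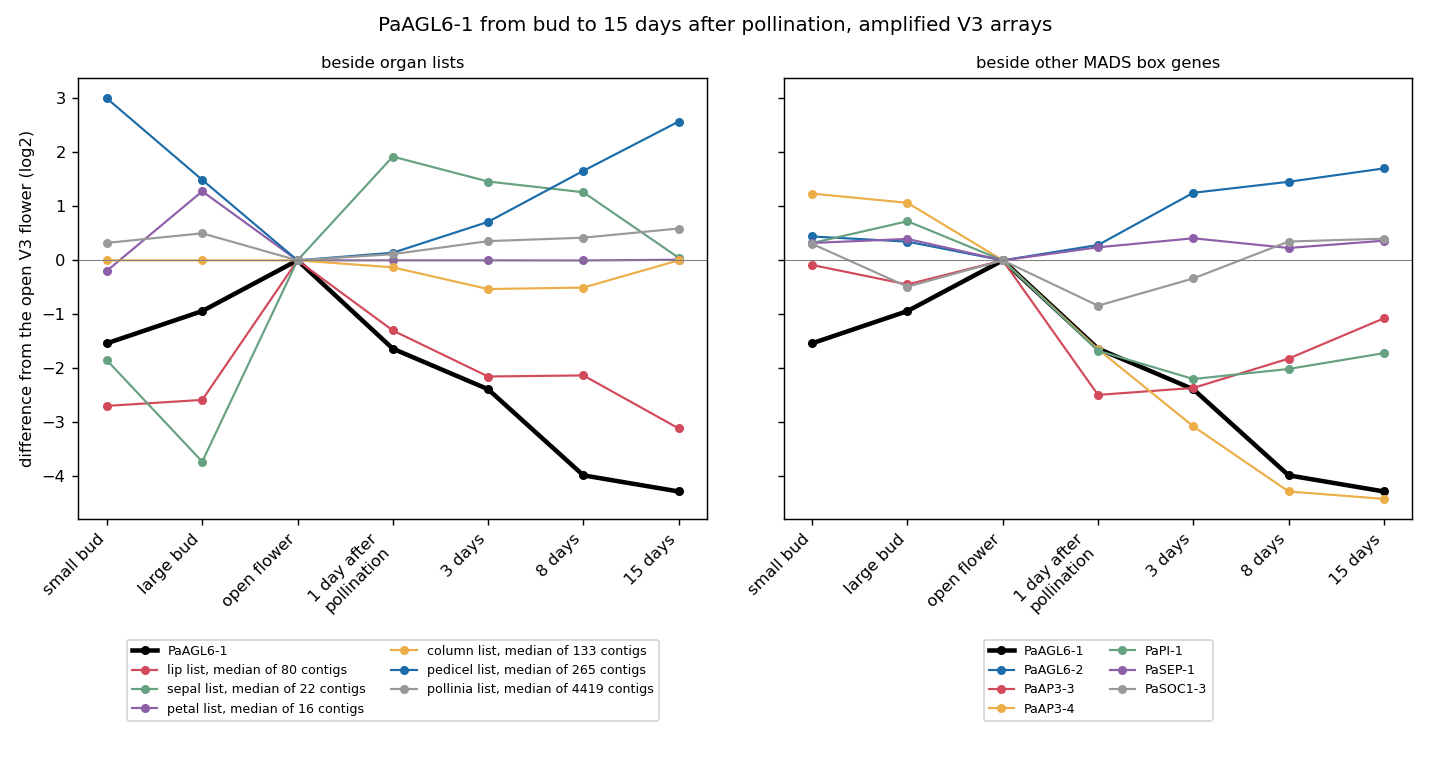
Difference from the open V3 flower (vertical axis, log2) in 7 V3 stages, from small bud to 15 days after pollination, for *PaAGL6-1* (black) beside the medians of 6 organ lists (left) and beside 6 other MADS box genes (right). Points are condition means of amplified arrays. *PaAGL6-1* and the lip list median lie below 0 in every other stage, whereas *PaAGL6-2* lies at 1.70 by 15 days.

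The third comparison follows the inflorescence of *P. aphrodite*. The level was 9.54 and 9.73 in the young inflorescence, 13.15 and 12.98 in the inflorescence, 15.15 and 15.09 in the bud, and 14.36 and 14.38 in the open flower. No 2 of these stages overlapped, and the bud was the highest. The inflorescence exceeded the young inflorescence by 3.43 ± 0.08 (log2, SE; 10.8-fold; adjusted p = 1.48e-07), a size reached by 0.484% of contigs, with 1.73% of 32645 contigs higher by over 4-fold. Within the 2 slides that carried both, the difference was 3.61 and 3.25. The bud exceeded the inflorescence by 2.06 ± 0.08 (4.16-fold, adjusted p = 3.28e-07), with 6.46% of 33108 contigs higher by over 4-fold.

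The open *P. aphrodite* flower was lower than the bud by -0.75 ± 0.09 (1.68-fold, adjusted p = 2.70e-04), where 32.1% of 31822 contigs were lower. On the 1 slide with both, the difference was -0.76. Probe 2 read 14.38 and 14.42 in the flower against 15.24 and 15.10 in the bud. The summed lip list went the other way, at 2591 to 2598 in the flower against 1645 to 1708 in the bud (divided by 1000). The 4 class B genes with a probe all fell at this step, and 14 of the 20 MADS box contigs fell while 1 rose, where 32.1% of all contigs tested fell and 35.3% rose. In the earlier step from young inflorescence to inflorescence, 15 of 19 MADS box contigs tested rose, *PaAP3-3* by 3.72 (adjusted p = 1.95e-06) and *PaAGL6-2* by 2.05 (adjusted p = 5.49e-07), against 27.3% of all contigs tested.

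Thus the step from bud to open flower was upward in V3 and downward in *P. aphrodite*. The difference between the 2 steps was 1.69 ± 0.14 (log2, SE; adjusted p = 8.02e-05), and 23.3% of 33046 contigs had a positive difference by the same test. This comparison was chosen after the values were seen. The V3 buds were over 1 cm and the size of the *P. aphrodite* buds was not given, so plant and bud stage cannot be told apart. Open flowers read 15.13 on both V3 arrays and 14.36 and 14.38 on the *P. aphrodite* arrays, a difference of 0.76 ± 0.11 (1.69-fold, adjusted p = 9.02e-04), with 26.9% of 31069 contigs higher in V3. No slide held amplified open flowers of both plants, so plant and slide cannot be told apart in this difference. The probes were designed on *P. aphrodite* contigs, and the part of sequence differences between the plants was not tested.

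The *P. aphrodite* leaf and root had no detected signal. The stalk was well above background at 10.71 and 10.75, higher than the young inflorescence, whereas the 3 leaf arrays read 4.32, 4.32 and 5.18 and both root arrays read 4.32. The open flower was at least 871-fold higher than the leaf (adjusted p = 1.85e-09) and at least 1062-fold higher than the root (adjusted p = 8.43e-10). These are lower bounds at the floor of 20, the flower mean set against the mean recorded for leaf or root, and they move with the treatment of low signals. On the log2 scale the differences were 9.77 and 10.05 at this floor, 8.04 and 8.31 with normexp background correction, and 10.74 and 11.94 with a floor of 5. Of contigs tested, 8.44% were higher in the flower than in the leaf by over 4-fold, and 8.38% than in the root.

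The unamplified arrays likewise had signal in flowers and not in leaves or roots by probe 1. The V3 flower read 10.90 and 11.08 by probe 1 and 10.81 and 10.51 by probe 2. The *P. aphrodite* flower read 10.57 and 10.63 by probe 1 and 10.41 and 10.42 by probe 2. All 9 leaf and root arrays lay between 4.32 and 4.33 by probe 1, none of them well above background. Probe 2 had 1 V3 root array on which the software marked a spot as well above background, with a processed intensity of 15.8, under the floor of 20.

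**Figure D4:**
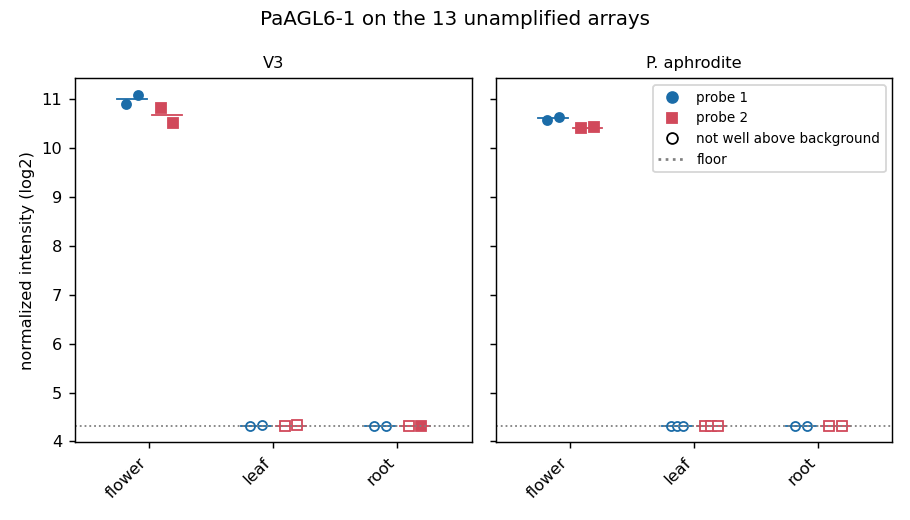
Level of *PaAGL6-1* (vertical axis, normalized intensity, log2) on each of the 13 unamplified arrays, by probe, in flower, leaf and root of V3 and *P. aphrodite*. Points are arrays, short lines are means, open symbols are not well above background and the dotted line is the floor. Flower arrays lie above 10 and all leaf and root arrays lie at the floor.

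In V3 the unamplified flower was at least 101.3-fold higher than the leaf and at least 101.5-fold higher than the root. In *P. aphrodite* the flower was at least 77.6-fold higher than either. These bounds hold at that floor, and other treatments of low signals gave smaller and larger differences. None of these 4 differences passed the test (adjusted p between 0.0889 and 0.163), in a limma fit with 1 residual degree of freedom that called 0% of contigs, although between 5591 and 9237 contigs had an unadjusted p under 0.05 in these comparisons. That degree of freedom came from the pair of V3 root arrays, both at the floor for *PaAGL6-1*, so the fit holds no measured spread of the flower arrays for this gene and its p-values bear on neither presence nor absence of a difference. With every array counted as a replicate all 4 passed, at adjusted p between 2.06e-11 and 5.10e-11. The V3 flower minus the *P. aphrodite* flower was 0.39 (log2) by probe 1 and 0.25 by probe 2 in the unamplified arrays, given without an error for the same reason. On the 1 slide with both it was 0.45 by probe 1 and 0.098 by probe 2, whose 2 spots on that V3 array had processed intensities of 2249.9 and 808.

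Contigs with the pattern most like *PaAGL6-1* were ranked by Pearson's r over the 20 amplified condition means, among 35638 contigs well above background in at least 1 condition. The median r over all of them was 0.02. The 10 highest ranged from 0.73 to 0.89, and none exceeded 0.9. The first was PATC065976 (r = 0.89) and the second PATC181363 (r = 0.88), neither paired with a gene name in the files. PATC065976 was at the floor of 4.32 in the petal, leaf and root, as *PaAGL6-1* was in the petal and root, and was brightest in the lip (12.08). PATC181363 was also brightest in the lip (15.72) but was 10.80 in the petal. In 4 of the 10 the lip was the brightest organ, by little in PATC142700 (lip 13.47, column 13.45) and PATC164750 (lip 12.66, sepal 12.64). All points share the arrays, and r here is a description.

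Among named genes *PaAP3-3* stood highest, at rank 15 (r = 0.70), followed by *PaZF*, a zinc finger gene, at rank 16 (r = 0.70). *PaSEP-1* was at rank 49 and *PaAGL6-2* at rank 61 (r = 0.62). By Spearman's rho over the same conditions *PaAP3-3* was at rank 8 and *PaZF* at rank 124. *PaSEP-1* was then only at rank 2294 (rho = 0.40) and *PaAGL6-2* at rank 9799 (rho = 0.19). *PaSOC1-3*, a relative of a flowering-time gene in *Arabidopsis*, had r = -0.16. Over the 14 conditions without floral organs, PATC181363 had r = 0.98 and ranked first. Several MADS box contigs ranked close to it, and PATC198032 (rank 4), *PaAG-2* (rank 5) and *PaAP3-3* (rank 6) each had r = 0.94. *PaAP3-4* had r = 0.93, *PaPI-1* and *PaAG-3* 0.92, *PaAGL6-2* 0.83 and *PaSOC1-3* -0.82. PATC198032 was brighter in the petal (13.61) than in the lip (7.92), and *PaAG-2* was brightest in the column (16.33).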

How the data were processed

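The authors scanned Cy3 arrays with Agilent Feature Extraction 10.7.1.1. The deposited files hold processed spot intensity, with background subtracted, and the deposited series table holds log2 values, equal to log2 of the floored intensity minus a constant per array close to its 75th percentile. *PaAGL6-1* and the gene lists were chosen with earlier results of these data known. Intensities under 20 were set to 20, spots marked as outliers left out, spots of a probe averaged on the log2 scale and arrays quantile normalized within each labelling (limma 3.58.1, R 4.3.3). The brightest probe stood for each contig. Arrays of a condition were averaged where the median absolute difference between them was at most that between spots, over probes well above background on both, a restriction chosen after the data were seen. Limma was fitted with 1 coefficient per condition, with 6 residual degrees of freedom for 26 amplified replicates and 1 for 7 unamplified ones. Contigs well above background on every array of a compared condition were tested, with Benjamini-Hochberg adjustment over them. Passing means an adjusted p under 0.05. Averaged conditions borrow their spread from the others. Named genes are *PaAGL6-1*, contigs the study names, and those most like it. Steps were tested on simulated data. Normexp used median spot signals. Probe sequences were not used here.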

Additional observations from a re-analysis of the deposited data

Results flagged for a closer look

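The step from bud to open flower in *PaAGL6-1* differed between the V3 and *P. aphrodite* samples by a test of the difference itself. It was 1.69 larger in V3 than in *P. aphrodite* (log2, SE 0.14, limma adjusted p = 8.02e-05), with 0.94 in V3 and -0.75 in *P. aphrodite*. Over 17 other settings it lay between 1.66 and 1.83, with adjusted p between 2.84e-14 and 4.86e-04. The comparison was chosen after the values were seen, and 23.3% of 33046 contigs had a positive difference by the same test. Plant, bud stage and slide cannot be told apart in it. For *PaAGL6-2* the same difference was 0.12 (adjusted p = 0.445), and for *PaAP3-3* it was 1.60 (adjusted p = 0.00266).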

How the results depend on the processing

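No paired analysis was possible because the labels carry no replicate numbers, and conditions that share slides were instead compared within slides and with slide as a block. Of 222 amplified recalculations, 219 kept the direction and the side of the threshold and none reversed. The other 3 were of the step from 8 to 15 days after pollination, which passed with every array a replicate together with a second change, at -0.32 with slide as a random block, at -0.21 in the authors' table and at -0.30 with only the V3 series fitted. *P. aphrodite* flower minus leaf and minus root were 8.04 and 8.31 with normexp and 10.74 and 11.94 with a floor of 5, against 9.77 and 10.05. Of 82 unamplified recalculations, 56 kept both and 26 passed a threshold the fit with averaged arrays did not pass. V3 flower minus leaf was 6.65 with the 75th percentile, 4.90 with normexp, 8.38 with a floor of 5, 6.66 with every array a replicate, 6.65 with the slide block and 6.65 in the authors' table. V3 flower minus root was 7.23, 4.86, 8.42, 6.67, 6.66 and 7.23 in the same order. *P. aphrodite* flower minus leaf was 6.33, 4.51, 7.97, 6.28, 6.27 and 6.33, and flower minus root 6.17, 4.60, 8.02, 6.28, 6.27 and 6.17. The V3 minus *P. aphrodite* flower difference passed at 0.39 with every array a replicate (adjusted p = 0.0268) and 0.39 with the slide block (adjusted p = 0.0173). With every array a replicate in a fit of the V3 series alone, contigs called numbered 24520 against 9242 for large minus small buds, 25023 against 8138 for 3 minus 1 days, 25372 against 9712 for 8 minus 3 days and 25834 against 9938 for 15 minus 8 days. Against the open flower they numbered 28211 against 18645 at 1 day, 28690 against 19069 at 3 days and 29352 against 19456 at 8 days. With every array a replicate in the whole fit, 23619 against 15368 were called between the open flowers and 24261 against 15997 in the difference of bud steps, and in the 4 unamplified flower contrasts between 14769 and 20548 against 0. Leaving out either unamplified V3 root array left no residual degrees of freedom and could not be fitted. Of the 10 contigs most like *PaAGL6-1*, 1 was shared with the ranking over 14 conditions and 3 with Spearman's rho. The cause of these shifts was not tested. Levels near the floor limit the flower to leaf and root contrasts to lower bounds.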
